A study of Arabidopsis thaliana with 12 samples.

Results

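Pentatricopeptide repeat proteins are nuclear-encoded proteins of plastids and mitochondria, and 5 of their genes, AT2G19280, AT2G17670, AT4G21170, AT4G04370 and AT3G22150, are described here in Arabidopsis thaliana. Each gene has 1 probe that the platform annotation pairs with it alone, so the members were 5 of 3439 probes and 5 of 690 probes matched to a single locus. No other probe in the annotation named any of them. They were chosen because their normalized values differed between the groups compared here, the first 4 lower and AT3G22150 higher in psah2. Their changes are therefore descriptions without a test.

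Total RNA was measured on 12 single-colour arrays, 6 of the psah2 mutant and 6 of the wild type (WT). The submitters describe psah2 plants as lacking PSI-H2, a small subunit of photosystem I, and both groups are of ecotype Columbia 0. The psah2 allele, the tissue, age and growth conditions, and whether the 6 samples of a group were separate plants, are not given in the sources used here, so the spread between arrays may be technical. No single-gene probe was paired with PSAH2, so its transcript gave no check of the group labels.

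Pentatricopeptide repeat proteins consist of tandem degenerate helical repeats, each of which contacts about a single RNA base, so that a row of repeats reads a particular stretch of an organelle transcript. Members of this large plant family edit, splice, cleave, stabilise or help to translate RNAs of plastids and mitochondria. Many plastid targets encode photosynthetic or gene expression subunits. The level of a transcript that encodes such a protein is not a measure of the processing of its target RNA, which was not measured here.

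The arrays of the groups differed in brightness. The median intensity of an array, on a linear scale that ends at 100, lay between 0.0904 and 0.0995 in psah2 and between 0.304 and 0.379 in WT. In psah2 20.1% to 22.5% of the probes of an array were listed at 0, and in WT 13.03% to 13.72%. Every psah2 array thus had a lower median than every WT array, and genotype and array brightness cannot be told apart. The summed intensities of the arrays lay closer together, at 2602 to 2905 in psah2 and 2972 to 3552 in WT. Consecutive arrays of a group resembled each other. Across 2133 probes, replicates 1 and 2, 3 and 4, or 5 and 6 correlated at r = 0.896 to 0.908 in psah2 against 0.850 to 0.882 for other psah2 arrays, and at r = 0.984 to 0.987 in WT against 0.955 to 0.973 for other WT arrays. Probes of 4 genes of green tissue, PSBY, PSAN, LHB1B2 and PRK, were brighter than 90.7% to 99.6% of the probes of their array, while the root and seed markers looked for had no single-gene probe. All 4 were higher in psah2 (4 of 4 called, limma), where 25.2% of all tested probes were called higher. Mean deposited intensities were 6.29 in psah2 and 2.15 in WT for PSBY, and 11.7 in psah2 and 4.33 in WT for PSAN. They were 34.9 in psah2 and 12.2 in WT for LHB1B2, and 6.96 in psah2 and 1.59 in WT for PRK. The part of these 4 genes in the changes of the members was not tested.

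Of the members, 4 were dimmer in psah2 than in WT as deposited with no overlap of the groups, and 1, AT3G22150, overlapped. Among all 2643 tested probes, 66.2% were likewise lower in psah2 without overlap and 7.68% higher without overlap, so nothing is read from the count of members. After quantile normalization, which gives every array the same distribution of log2 intensities, the groups did not overlap for any of the 5, with 4 lower and 1 higher. The background was then 25.4% of tested probes lower and 18.8% higher without overlap. In a fit with limma, 61.5% of all tested probes passed a Benjamini-Hochberg adjusted p below 0.05, 36.2% lower and 25.2% higher in psah2. All 5 members had at least 4 values above 0 in each group and entered this fit, and since the choice of members rests on it no p-value is given for them.

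**Figure D1:**
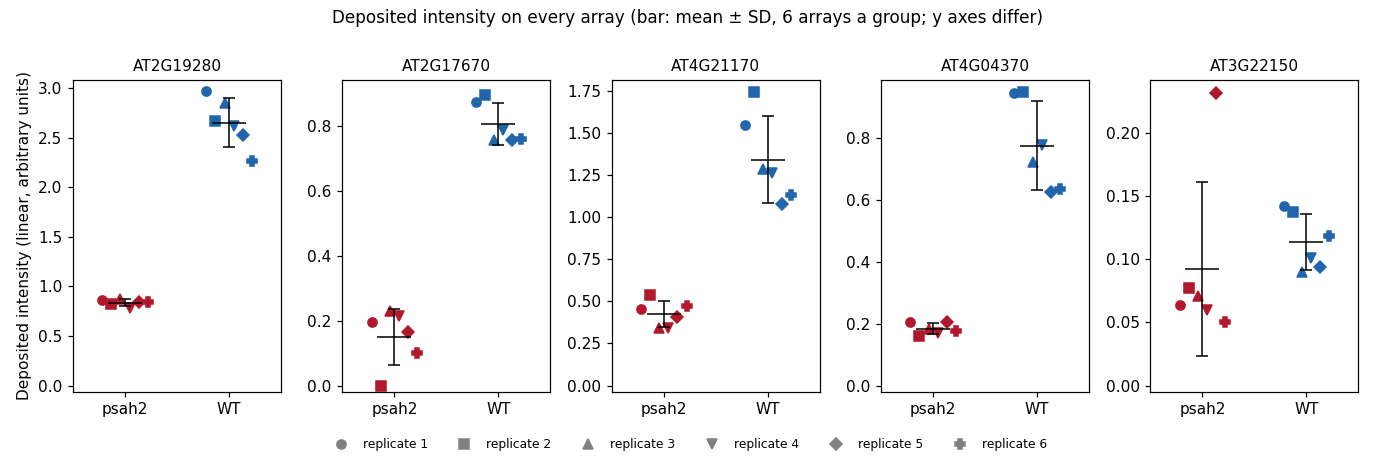
Deposited intensity (linear, arbitrary units, a separate axis for each gene) of the 5 probes on each of 6 psah2 and 6 WT arrays, with a marker shape for each replicate number and bars for the mean ± SD. For AT2G19280, AT2G17670, AT4G21170 and AT4G04370 all psah2 arrays lie below all WT arrays, while for AT3G22150 psah2 replicate 5, at 0.232, lies above every WT array.

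AT2G19280 encodes a pentatricopeptide repeat protein and had the largest fitted fall of the 5 after quantile normalization with values at 0 left out, though not in the values as deposited, where AT2G17670 and AT4G04370 had lower log2 changes. Its deposited intensity ran from 0.777 over a median of 0.841 to 0.874 in psah2, and from 2.27 over 2.64 to 2.97 in WT. The 6 psah2 arrays were nearly level, with a coefficient of variation of 4.12%, against 9.33% in WT, and the lowest WT array was far above the highest psah2 array. The mean was 0.836 ± 0.034 in psah2 and 2.65 ± 0.25 in WT (SD, n = 6 each), a ratio of 0.315. On the normalized log2 scale the gene averaged 0.03 ± 0.11 in psah2 and 1.40 ± 0.10 in WT (SD, n = 6 each). The fitted log2 change was -1.37 with an SE of 0.09, a 2.58-fold lower value in psah2. By rank, the probe was brighter than 89.0% to 90.8% of the probes of a psah2 array and than 95.6% to 96.2% of those of a WT array.

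AT2G17670, also a pentatricopeptide repeat gene, was listed at 0 on 1 array, psah2 replicate 2, and was the only member at 0 on any of the 12 arrays. Its deposited intensity ran from 0 over a median of 0.180 to 0.229 in psah2, and from 0.756 over 0.774 to 0.897 in WT. The psah2 arrays were scattered and the WT arrays close together, with coefficients of variation of 57.6% and 7.91%. The mean was 0.150 ± 0.087 in psah2 and 0.806 ± 0.064 in WT (SD, n = 6 each), and over the 5 psah2 arrays above 0 it was 0.180 ± 0.051. The fit leaves out the array at 0, so its log2 change of -1.06 (SE 0.17) rests on 5 psah2 and 6 WT arrays, a 2.09-fold lower value. With values at 0 set to a floor the log2 change was -3.06 with an SE of 2.09. With 0.1 added to every value, which also keeps that array, it was -1.03 with an SE of 0.34. Its size thus depends on how the value at 0 is treated. Among the arrays above 0, psah2 replicate 6 was the lowest, at an intensity of 0.0996.

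AT4G21170 had a deposited intensity from 0.341 over a median of 0.430 to 0.536 in psah2, and from 1.08 over 1.27 to 1.74 in WT. The groups did not overlap, with psah2 replicates 3 and 4 lowest in psah2 and WT replicates 1 and 2 highest in WT. The mean was 0.425 ± 0.076 in psah2 and 1.34 ± 0.26 in WT (SD, n = 6 each), a ratio of 0.317. After normalization the log2 change was -0.94 with an SE of 0.14, or 1.91-fold lower. On the log2 scale, consecutive replicates differed by 0.12 on average in psah2 and by 0.15 in WT, and other arrays of the same group by 0.34 in psah2 and 0.25 in WT. Not all members shared this. Consecutive replicates differed more than other arrays for AT2G19280 in WT and for AT4G04370 and AT3G22150 in psah2, and less in the remaining groups.

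AT4G04370 had a deposited intensity from 0.160 over a median of 0.180 to 0.205 in psah2, and from 0.624 over 0.749 to 0.948 in WT. The psah2 arrays were again close together and the WT arrays fell in steps, with replicates 1 and 2 highest and 5 and 6 lowest. The mean was 0.184 ± 0.018 in psah2 and 0.775 ± 0.144 in WT (SD, n = 6 each), a ratio of 0.237. After normalization the log2 change was -0.90 with an SE of 0.10, or 1.87-fold lower. The brightness of the WT arrays followed the same steps, with the median intensity of the array also highest on replicates 1 and 2 and lowest on 5 and 6. WT replicates 1 and 2 were the brightest WT arrays for AT2G17670, AT4G21170, AT4G04370 and AT3G22150, but not for AT2G19280. The part of array brightness in these levels was not tested.

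AT3G22150 is the member with a known target, as its protein has been reported under the name AEF1 as an editing factor of the plastid atpF and the mitochondrial nad5 transcripts. Since probes differ in sequence, intensities are compared here only between arrays and not between genes. Its deposited intensity ran from 0.0505 over a median of 0.0673 to 0.232 in psah2, and from 0.0900 over 0.110 to 0.143 in WT. Of the psah2 arrays, 5 lay below every WT array and replicate 5 lay above every WT array. The mean was 0.0925 ± 0.0689 in psah2 and 0.114 ± 0.022 in WT (SD, n = 6 each), and without psah2 replicate 5 the psah2 mean was 0.0646 ± 0.0104 (SD, n = 5).

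On the normalized scale the direction of AT3G22150 was the opposite. It averaged -2.78 ± 0.68 in psah2 and -4.32 ± 0.30 in WT (SD, n = 6 each), a fitted log2 change of 1.54 with an SE of 0.29, or 2.90-fold higher. With values at 0 set to a floor before normalization the log2 change was 4.84 with an SE of 0.98, so that its size depends on how the dimmest probes are treated. Without psah2 replicate 5 the normalized psah2 mean was -3.05 ± 0.21 (SD, n = 5) and the log2 change 1.25, so that this array did not decide the direction. By rank, the probe was brighter than 36.4% to 71.7% of the probes of a psah2 array and than 18.7% to 23.2% of those of a WT array. The probe of AT3G22150 was thus dimmer than in WT on 5 of 6 psah2 arrays as deposited, and higher in rank than in WT on all 6. Part of that rank comes from probes listed at 0, which count as dimmer. They were 20.1% to 22.5% of the probes of a psah2 array and 13.03% to 13.72% of those of a WT array.

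**Figure D2:**
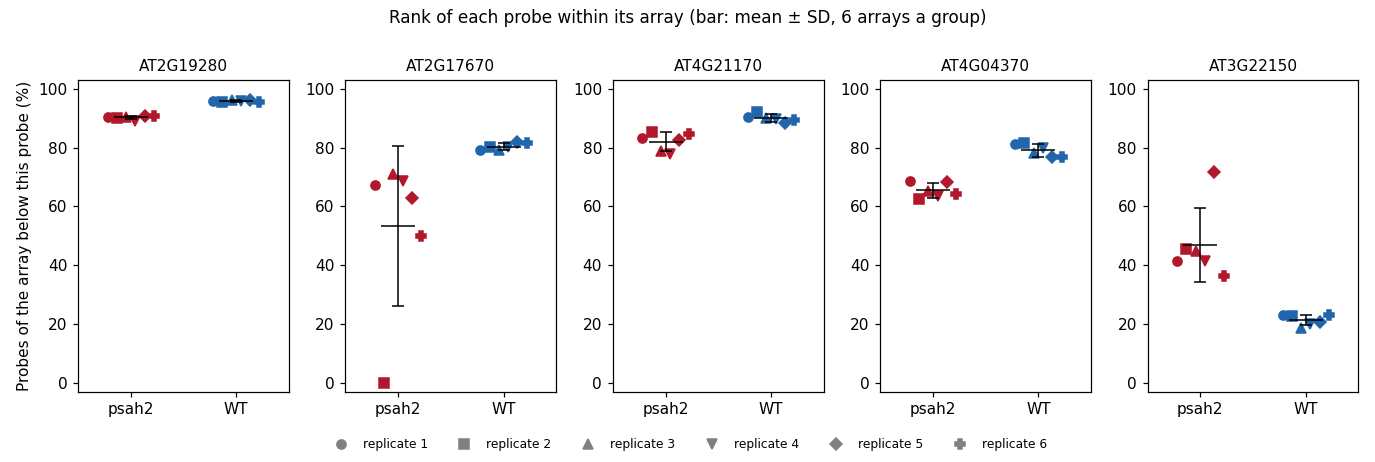
Share of the probes of an array, in percent, that were dimmer than the probe of each of the 5 genes, on 6 psah2 and 6 WT arrays, with a marker shape for each replicate number and bars for the mean ± SD. Probes listed at 0 count as dimmer than any probe above 0, and more of them were on psah2 arrays. AT2G19280 stands at 89.0% to 90.8% in psah2 against 95.6% to 96.2% in WT, AT2G17670 at 0% on psah2 replicate 2 where it is listed at 0, and AT3G22150 at 36.4% to 71.7% in psah2 against 18.7% to 23.2% in WT.

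How far the members stood from the other probes depended on whether the arrays were scaled by 1 factor each or by a correction that varies with level. As deposited, the log2 changes were -1.66 for AT2G19280, -2.21 for AT2G17670, -1.66 for AT4G21170, -2.06 for AT4G04370 and -0.50 for AT3G22150, while the median over all 2643 tested probes was -1.64. AT2G19280 and AT4G21170 therefore lay at the middle of all probes, with 49.3% and 49.5% of the probes changed further down. AT2G17670 had 29.5% and AT4G04370 35.2% of the probes below it, and AT3G22150 had 80.1%.

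After quantile normalization the median over all probes was -0.26, and 14.5% of the probes were changed further down than AT2G19280, 23.0% than AT2G17670, 27.2% than AT4G21170 and 28.0% than AT4G04370. AT3G22150 had 91.8% of the probes below it. Cyclic loess, the other level-dependent correction, placed the members at 13.5%, 23.6%, 25.8%, 30.2% and 92.3% in the same order. With arrays centred on the median of their values above 0, the shares for AT2G19280 and AT4G21170 were 49.3% and 49.4%, as near the middle as in the deposited values. Among the scalings run, AT2G19280 and AT4G21170 thus left the middle of all probes only under corrections that treat bright and dim probes differently.

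Dividing each array by its median over all probes, a scaling chosen after seeing the data, turned 2 of the members round. AT2G19280 was then at 8.85 ± 0.54 times the array median in psah2 and at 7.83 ± 0.56 times in WT (SD, n = 6 each), and AT4G21170 at 4.49 ± 0.74 times in psah2 and 3.93 ± 0.38 times in WT. Their log2 changes were 0.18 each, with SEs of 0.09 for AT2G19280 and 0.13 for AT4G21170. AT2G17670 and AT4G04370 kept a lower value in psah2, at -0.37 (SE 0.21) and -0.22 (SE 0.11). AT3G22150 kept a higher one, at 1.34 (SE 0.31), and with arrays divided by their summed intensity it was at -0.28 (SE 0.33).

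**Figure D3:**
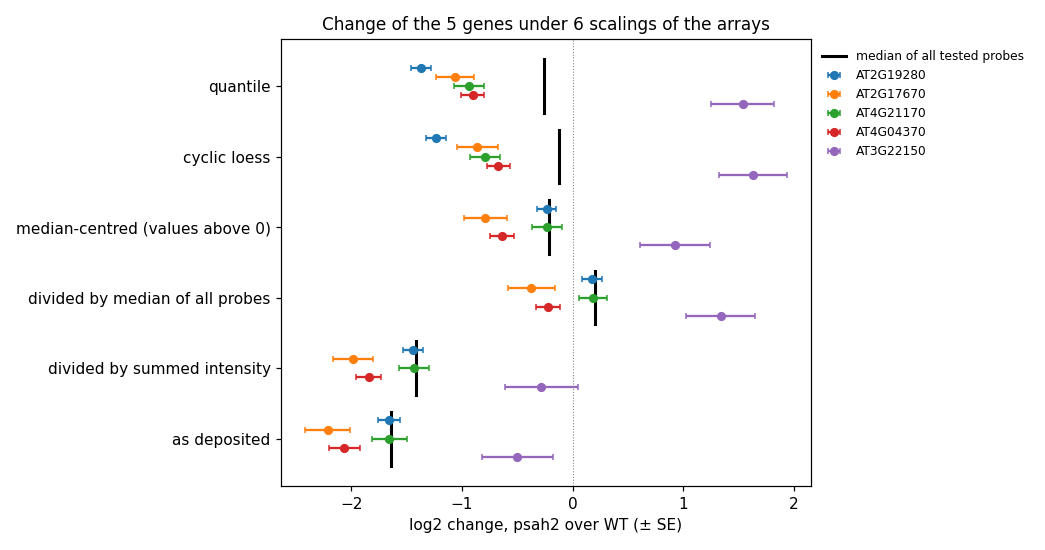
Log2 change of the 5 genes, psah2 over WT, with its SE on the horizontal axis, under 6 scalings of the arrays listed from top to bottom, and black bars for the median of all 2643 tested probes. AT2G19280 lies left of the black bar with quantile normalization (-1.37 against -0.26) and on it with arrays as deposited (-1.66 against -1.64), and AT3G22150 lies right of the bar under all 6 scalings. Arrays as deposited and those scaled by 1 factor each show nearly the same standing by construction.

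Among themselves, the 4 genes with lower normalized values correlated across arrays at r = 0.739 to 0.957, over 12 arrays or, with AT2G17670, 11. AT3G22150 correlated with them at r = -0.837 to -0.718. These values hold the difference between the groups by which the genes were chosen. After subtraction of the group means the correlations among the 4 ran from -0.612, for AT2G17670 and AT4G21170, to 0.474, for AT4G21170 and AT4G04370. Within the groups the correlations among the 4 genes were of both signs.

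The probes whose normalized values were most like those of each member over the 12 arrays were sought among the single-gene probes with a value on every array, of which 420 existed. For AT2G19280 they were XERICO (AT2G04240), a RING-type zinc finger gene, at r = 0.991 and AT3G04650, also at 0.991. For AT2G17670, over 11 arrays, they were AT5G26850 at r = 0.980 and AT4G16490 at 0.969. These high values are not selective, since 69 probes exceeded 0.9 for AT2G19280 and 33 for AT2G17670, all points sharing the same split into groups.

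For AT4G21170 the most alike were AT4G22830 at r = 0.971 and AT3G59980 at 0.959, and for AT4G04370 AT1G13990 at 0.983 and again AT4G22830 at 0.973. Above 0.9 there were 37 probes for AT4G21170 and 58 for AT4G04370. For AT3G22150 they were AT2G39100 at r = 0.924 and AT1G50000 at 0.902, the only 2 probes above 0.9. The values of AT3G22150 include psah2 replicate 5, which stood above its other psah2 arrays. With group means subtracted the correlations of these pairs ran from 0.415, for AT2G19280 and AT3G04650, to 0.895, for AT2G17670 and AT5G26850. No pattern gene was a member of the pentatricopeptide repeat list.

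The rest of the family was listed from general knowledge of the loci, without a check that the list is complete. It held 16 further genes with a single-gene probe. Of these, 10 could be tested, and 3 rose, 3 fell and 4 did not pass the test in psah2 (limma, adjusted p below 0.05), against a background of 25.2% of all tested probes higher and 36.2% lower. The split turned with the scaling, to 1 higher and 8 lower as deposited or by summed intensity, and to 5 higher and 2 lower with arrays divided by their median over all probes. The median log2 change of the 10 was -0.05 after quantile normalization, and -0.26 over all tested probes. The 10 are what remained once the 5 members, chosen on their change, were set aside, so their counts and median carry that choice. With the members included, 4 of the 15 tested family genes were higher and 7 lower, and the median log2 change was -0.26, as over all probes. None of the 21 genes was a neighbour of another in the order of protein-coding genes of the TAIR10.1 annotation, the closest pair being 62 genes apart.

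OTP70 (AT4G25270), a plastid protein known for splicing of rpoC1, fell in psah2. Its deposited intensity ran from 0.0703 over a median of 0.0961 to 0.175 in psah2, and from 0.491 over 0.635 to 0.679 in WT, without overlap. The log2 change was -1.16 (SE 0.20, n = 6 each, limma, adjusted p = 0.000298), a 2.24-fold lower value, and this call held under every alternative run.

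AT3G13150 fell by 1.28 on the log2 scale (SE 0.35, limma, adjusted p = 0.00782) with intensities of 0 to 0.0748 in psah2, where replicate 2 was at 0 and left out of the fit, against 0.313 to 0.413 in WT. Its call was lost with cyclic loess, with a floor for values at 0 and with consecutive replicates averaged. AT3G51320 fell by 0.39 on the log2 scale (SE 0.11, adjusted p = 0.0063, limma), with intensities of 0.169 to 0.223 in psah2 and of 0.507 to 0.662 in WT. It lost its call with cyclic loess, with median-centred arrays, with averaged replicates and with arrays divided by their median over all probes, where it was at 0.20.

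AT3G26630 rose after normalization and in the deposited values too. Its intensity ran from 22.3 over a median of 25.6 to 30.6 in psah2, and from 8.45 over 9.92 to 13.8 in WT. The groups did not overlap, and the rise had a log2 change of 0.60 after normalization (SE 0.10, n = 6 each, limma, adjusted p = 0.000269) and 1.33 as deposited. Its size depended on the scaling, at 1.55 by summed intensity, 2.75 with median-centred arrays and 3.16 with arrays divided by their median over all probes. It was the only one of the 15 tested family genes with a higher mean in psah2 as deposited. It kept its call under every alternative run, with an adjusted p of 0.0347 (limma) once consecutive replicates were averaged.

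AT3G49740 and AT1G79080 also rose after normalization, by log2 changes of 1.30 (SE 0.25, adjusted p = 0.000762, limma) and 0.52 (SE 0.13, adjusted p = 0.00357, limma). With consecutive replicates averaged the call of AT1G79080 was lost (adjusted p = 0.0674, limma), and AT3G49740 had an adjusted p of 0.0254 (limma). AT3G49740 was at 3.18 with a floor for values at 0. As deposited both had lower means in psah2. AT3G49740 was at 0.0890 ± 0.0410 in psah2 and 0.128 ± 0.019 in WT, and AT1G79080 at 0.231 ± 0.051 in psah2 and 0.400 ± 0.017 in WT (SD, n = 6 each). As for AT3G22150, their change was positive after quantile normalization and negative as deposited, and the cause was not tested.

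**Figure D4:**
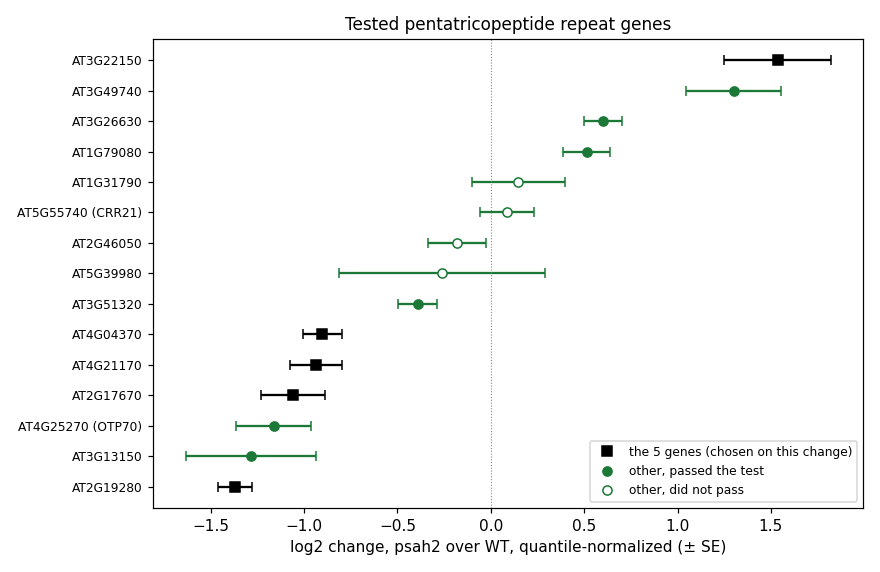
Log2 change after quantile normalization, psah2 over WT, with its SE, of the 15 tested pentatricopeptide repeat genes, sorted by size. Black squares are the 5 genes chosen on this change, filled circles the other 6 that passed the test (3 higher, 3 lower) and open circles the 4 that did not.

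Of the 4 genes that did not pass, CRR21 (AT5G55740), an editing factor of the plastid ndhD transcript, had a log2 change of 0.08 (SE 0.14), AT1G31790 of 0.15 (SE 0.25) and AT2G46050 of -0.18 (SE 0.16). AT5G39980 was at -0.26 with an SE of 0.55, and its psah2 arrays ran from 0.0192 to 0.435, so that its change is known only within a wide interval. The remaining 6 of the 16 were not tested. AT3G22690, AT5G02830 and AT2G30100 were listed at 0 on all 12 arrays. OTP85 (AT2G02980), another ndhD editing factor, and AT4G14050 were listed at 0 on all WT arrays and on 5 psah2 arrays each. AT5G15280 was at 0 on 4 of 6 psah2 arrays and above 0 on all 6 WT arrays, at 0.177 to 0.236, with the other psah2 arrays at 0.0411 and 0.148.

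Genes of organelle RNA outside the family could not be set beside the members. Of 10 MORF and ORRM editing partners, 5 CRM splicing factors, 6 chloroplast ribonucleoproteins, 7 organelle ribonucleases and 19 genes of organelle transcription, 0 had a single-gene probe in the annotation. These arrays measured bulk RNA, in which fewer cells of a type and less RNA per cell cannot be told apart.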

How the data were processed

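The authors deposited 1 intensity per probe and array on a linear scale from 0 to 100. Background correction, scaling and scanner are not given in the sources used here. Groups and replicate numbers came from sample titles. Values were log2-transformed with values at 0 left missing, and arrays were quantile-normalized because their medians and sums differed by more than 5%. Probes with at least 4 values in each group, 2643 of 3439, were compared in R 4.3.3 with limma 3.58.1 (lmFit, eBayes), without covariate and 2-sided, with Benjamini-Hochberg adjustment over all tested probes. The number of arrays limits the precision. Probes were named from the platform annotation, in which 692 had 1 gene, 870 several and 1877 none listed, and through RefSeq loci of TAIR10.1, which matched 690 of the 692. Probe sequences were not used to check these names.

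The members and lists were chosen with earlier results of these data known. The family was to be taken from gene descriptions. The gene table used here holds none, so it was listed from general knowledge of locus names. Named genes are the 5 members, called family genes (up to 4 a direction), up to 2 called genes of each organelle RNA list, and the 2 probes most correlated with each member. On simulated data for this comparison (2643 probes, 50 changed at each size) the fit recovered 38% of 1.5-fold, 64% of 2-fold, 92% of 4-fold and 96% of 8-fold changes, with 4 of 2443 unchanged probes called. The simulated arrays were independent, without values at 0 or a brightness difference between groups, and were not normalized again. These rates therefore do not cover errors from the scaling, from values at 0 or from arrays that resemble each other. Alternatives were other scalings, filters, floors, a pseudocount of 0.1, the replicate number as a block, averaged consecutive replicates and each array left out.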

Additional observations from a re-analysis of the deposited data

Results flagged for a closer look

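In groups of 4 to 6 arrays, a gap test asked whether the highest or lowest array stood apart, which chance alone passes in about 1 of 20 groups. Of 30 groups of family genes tested, 2 held such an array. For AT3G22150, psah2 replicate 5 was above the other psah2 arrays (gap over range 0.719), at a normalized log2 value of -1.44 against a mean of -3.05 and at a deposited intensity of 0.232. For AT3G13150, psah2 replicate 1 was below the other psah2 arrays above 0 (gap over range 0.792, n = 5), at -5.16 against a mean of -3.15 and an intensity of 0.0124. Replicate 2, listed at 0, was lower still and was not part of this gap test.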

How the results depend on the processing

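All tested probes gave 667 higher and 958 lower calls, 251 and 2049 as deposited, 305 and 1959 with arrays divided by their summed intensity, and 992 and 448 with arrays divided by their median over all probes (the last pair of scalings chosen after seeing the data). Higher calls were 41.0% of the calls, against 10.9%, 13.5% and 68.9%. The other family genes had 3 higher and 3 lower, but 1 and 8 as deposited and by summed intensity, 5 higher by the median over all probes, and 1 lower with cyclic loess or with consecutive replicates averaged. As deposited and by summed intensity, the log2 changes of AT3G22150 (-0.50 and -0.28), AT3G49740 (-0.66 and -0.45) and AT1G79080 (-0.82 and -0.60) turned. By the median over all probes, AT2G19280 (0.18), AT4G21170 (0.18) and AT3G51320 (0.20) turned. The cause of these turns was not tested. Leaving out 1 array gave 620 to 659 higher and 873 to 926 lower calls, 3 and 3 for the other family genes each time, and log2 changes of -1.42 to -1.31 for AT2G19280, -1.12 to -0.88 for AT2G17670, -1.002 to -0.85 for AT4G21170, -0.95 to -0.86 for AT4G04370 and 1.25 to 1.63 for AT3G22150. A fit with a replicate block called 654 probes higher and 938 lower, and in it no call of a named family gene was lost. Around their group means, same-numbered psah2 and WT arrays deviated together at r = 0.06 to 0.17, above 0.1 for 4 of 6 numbers. Among the arrays of the other group, each of the 12 arrays had its best match in the array of its own number. This is a hint from the data that the labels do not state. Signal near 0 limits AT2G17670 (-3.06 with a floor), AT3G22150 (4.84), AT3G49740 (3.18) and AT3G13150 (-2.83).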
